A study of Homo sapiens with 16 samples.

Results

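The nuclear-encoded subunits of the oxidative phosphorylation system were examined in 16 RNA sequencing libraries of human myeloma cells. The members were every row of the count table whose symbol begins with NDUFA, NDUFB, NDUFC, NDUFS, NDUFV, UQCR, COX4I, COX5, COX6, COX7, COX8 or ATP5, together with SDHA, SDHB, SDHC, SDHD and CYC1. NDUFAF assembly factors and pseudogene symbols were removed. This gave 92 of 23354 rows, of which 83 passed the filter on low counts and were tested among 14215 genes. Complex I held 37 tested members, complex II 4, complex III 9, complex IV 12 and complex V 15, and 6 tested rows (antisense RNAs, COX7A2L, UQCRHL, ATP5S and ATP5SL) were assigned to no complex.

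Oxidative phosphorylation takes electrons from NADH at complex I and from succinate at complex II, passes them through complex III and cytochrome c to oxygen at complex IV, and uses the proton gradient built on the way to make ATP at complex V. Complexes I, III, IV and V combine nuclear-encoded with mitochondrially encoded subunits, whereas complex II is nuclear-encoded throughout. Plasma cells and the myeloma cells derived from them secrete large amounts of protein, which requires ATP. The mitochondrially encoded subunits were not analysed here.

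The libraries came from MM1S, a myeloma cell line that responds to glucocorticoids, and MM1R, its glucocorticoid-resistant counterpart. Each line was treated for 48 h with vehicle, with 0.1 µM TAK-981 (an inhibitor of the SUMO-activating enzyme), with 1 µM dexamethasone (Dex, a synthetic glucocorticoid) or with both drugs (combo), with 2 libraries per group and 8 groups. Ribosomal RNA was depleted before sequencing, and each library held between 15707587 and 24796539 counts. Nothing in the descriptions states that the 2 libraries of a group were separate cultures, so p-values measure only the spread between these samples, which may be technical. The 2 libraries differed by far more than sampling noise in every group (chi-square per degree of freedom from 2.15 in MM1R combo to 22.6 in MM1S TAK-981 and 20.4 in MM1S Dex). Plasma cell markers were abundant (summed level of 8 genes between 3370 and 6135 CPM, counts per 1000000 after TMM scaling), whereas the B cell list never exceeded a sum of 0.557 CPM and the myeloid list 0.543 CPM. The T cell list summed to 3.49 and 3.52 CPM in MM1S vehicle and to 0.619 and 0.880 CPM in MM1S combo, and to 4.84 and 4.91 CPM in MM1R vehicle and 2.27 and 2.79 CPM in MM1R TAK-981, and the erythroid list reached 12.4 CPM in 1 MM1R Dex library. The part of these lists in the results below was not tested.

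Promoters are shown for 5 members that span the range of behaviour described below, and they were chosen after their values were seen. ATP5G1, COX8A and UQCRC1 were lower after TAK-981 in MM1R, SDHA was not, and COX6B2 was higher. Each sequence is the RefSeq window of 300 bases (250 before and 50 after the start) in GRCh38.p14, a different build from the hg19 used for counting. The windows are ATP5G1 (ATP5MC1 in RefSeq) at chr17:48892537-48892836 on the + strand, COX8A at chr11:63974370-63974669 on the + strand, UQCRC1 at chr3:48609597-48609896 on the - strand, SDHA at chr5:218070-218369 on the + strand and COX6B2 at chr19:55354670-55354969 on the - strand. Capitals mark a match on either strand to 1 of 5 motifs: E-box CACGTG, NRF1 (given by name only), ETS CCGGAAG, YY1 AAGATGGCG and ERR TCAAGGTCA.
ATP5G1: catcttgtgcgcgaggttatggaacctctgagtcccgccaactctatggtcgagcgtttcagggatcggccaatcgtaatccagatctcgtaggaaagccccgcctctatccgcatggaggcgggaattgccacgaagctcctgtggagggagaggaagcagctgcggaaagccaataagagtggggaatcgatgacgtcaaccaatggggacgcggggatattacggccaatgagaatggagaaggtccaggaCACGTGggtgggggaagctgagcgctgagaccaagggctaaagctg
COX8A: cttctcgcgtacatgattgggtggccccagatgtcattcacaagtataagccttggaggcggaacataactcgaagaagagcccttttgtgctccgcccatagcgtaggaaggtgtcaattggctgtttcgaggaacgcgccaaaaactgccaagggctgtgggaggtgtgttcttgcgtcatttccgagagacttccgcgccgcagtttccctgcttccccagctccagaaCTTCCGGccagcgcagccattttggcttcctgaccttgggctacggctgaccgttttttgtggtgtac
UQCRC1: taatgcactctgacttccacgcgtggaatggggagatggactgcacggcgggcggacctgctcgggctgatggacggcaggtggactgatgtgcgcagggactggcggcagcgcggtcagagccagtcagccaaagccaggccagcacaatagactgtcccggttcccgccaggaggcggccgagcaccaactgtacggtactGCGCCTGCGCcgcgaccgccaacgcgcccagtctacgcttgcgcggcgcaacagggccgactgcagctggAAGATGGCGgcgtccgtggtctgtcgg
SDHA: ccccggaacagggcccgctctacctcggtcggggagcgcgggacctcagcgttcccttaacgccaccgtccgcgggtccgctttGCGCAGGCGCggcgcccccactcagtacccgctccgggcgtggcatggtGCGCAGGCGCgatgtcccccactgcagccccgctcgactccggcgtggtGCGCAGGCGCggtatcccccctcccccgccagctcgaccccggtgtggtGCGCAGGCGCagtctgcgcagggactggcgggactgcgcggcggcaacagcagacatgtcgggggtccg
COX6B2: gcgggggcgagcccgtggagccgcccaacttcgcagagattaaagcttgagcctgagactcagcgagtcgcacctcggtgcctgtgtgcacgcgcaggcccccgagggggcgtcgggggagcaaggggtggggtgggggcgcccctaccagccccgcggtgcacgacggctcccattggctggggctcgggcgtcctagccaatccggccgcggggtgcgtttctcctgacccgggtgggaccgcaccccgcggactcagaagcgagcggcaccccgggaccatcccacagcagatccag
The NRF1 motif occurred 4 times in the SDHA window, once in that of UQCRC1 beside a YY1 motif, and in none of the other windows shown. The ATP5G1 window held an E-box, the COX8A window an ETS motif, and the COX6B2 window none of the 5.

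A promoter entry was found for 73 of 92 members, 58 by symbol and 15 through an older name on the same chromosome. NRF1 is a regulator of nuclear genes for mitochondrial proteins, and its motif was present in 21.9% of member windows against 5.74% of all 34943 windows. The ETS motif, bound by factors such as GABPA, was in 26% against 10.2%. YY1 motifs were in 12.3% against 1.75%, E-boxes in 11% against 7.23%, and the ERR motif in 1.37% against 0.355%. Among complexes, NRF1 motifs were in 4 of 7 windows of complex III and in 1 of 15 of complex IV, which include rows that did not pass the filter. In complex IV, ETS motifs were in 5 of 15 windows. YY1 motifs and E-boxes were there in 0 of 15, but their shares over all windows were also low. These matches describe the letters in the window only.

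In vehicle-treated cells, members were compared per kilobase of gene model. The median member of complex IV stood highest, at 142 CPM per kb in MM1S, followed by complex V at 76.8, complex I at 53.6, complex III at 48.5 and complex II at 36.5. In MM1R complex III stood above complex I, with complexes IV, V, III, I and II at 180.0, 88.6, 66.7, 65.4 and 41.0. All genes tested had a median of 7.33 CPM per kb in MM1S and 7.24 in MM1R. The highest members were COX7C at 431 ± 10.9 CPM per kb (SD, n = 2) and ATP5B, the catalytic beta subunit of the ATP synthase head, at 392 ± 8.19 in MM1S. In MM1R the order of this pair was the other way, with ATP5B at 529 ± 14.1 and COX7C at 441 ± 6.95 CPM per kb.

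Tissue isoforms were nearly absent. COX4I2 (0 to 1 counts over the 16 libraries), COX6A2 (0), COX7A1 (0 to 2), COX7B2 (0), COX8C (0 to 4) and NDUFA4L2 (0 to 13) did not pass the filter. The same was true of the retrocopy ATP5L2 (3 to 12 counts) and the read-through rows ATP5J2-PTCD1 (0) and NDUFC2-KCTD14 (0 to 1). Their ubiquitous counterparts were expressed, with COX6A1 at 67.2 ± 2.98, COX8A at 209 ± 7.02 and COX4I1 at 52.7 ± 2.70 CPM per kb in MM1S vehicle. COX6B2, described as the testis form of COX6B, was the exception among isoforms in passing the filter, at 10 to 77 counts, and its row overlaps FAM71E2 on the same strand, so its reads may be shared.

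Most members stood higher in vehicle-treated MM1R than in vehicle-treated MM1S. By edgeR's quasi-likelihood test at an adjusted p of 0.05, 44 members (53%) were higher, against 25.6% of all genes. Another 4 (4.82%) were lower, against 22.6%. The median difference was 0.23 on the log2 scale, against 0.01 over all genes tested. Complex I had 21 higher and 2 lower, complex II 1 and 0, complex III 6 and 0, complex IV 7 and 1, and complex V 9 and 1.

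ATP5G1, 1 of 3 genes for the same c-ring subunit, was at 50.4 and 48.0 CPM in the MM1S vehicle libraries and at 76.3 and 80.6 CPM in those of MM1R, with no overlap (0.67 ± 0.08 SE on the log2 scale, edgeR adjusted p = 3.15e-06). CYC1, the cytochrome c1 subunit of complex III, was at 82.4 and 83.2 CPM against 118 and 125 CPM (0.56 ± 0.08, edgeR adjusted p = 9.30e-06). NDUFS7, a complex I core subunit that carries an iron-sulfur cluster, was at 60.0 and 63.5 against 100.2 and 105 CPM (0.73 ± 0.10, edgeR adjusted p = 2.07e-05). The other called members with the smallest adjusted p in their complex were NDUFB9 (0.73), SDHB (0.33), COX5A (0.48), UQCR11 (0.59) and ATP5B (0.43). UQCRC1 (0.44), COX5B (0.21), ATP5A1 (0.23), ATP5G3 (0.33), COX6A1 (0.33), COX6B1 (0.25), COX8A (0.29) and NDUFA4 (0.45) were also higher in MM1R.

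The 4 members lower in MM1R were COX6B2 (1.83 and 1.28 CPM in MM1S against 0.496 and 0.412 CPM in MM1R, -1.77 ± 0.33, edgeR adjusted p = 0.000227), NDUFA10 (-0.47), NDUFB5 (-0.19) and ATP5E (-0.97). ATP5E had only 5 to 23 counts per library and overlaps the SLMO2-ATP5E row, so its value is uncertain. Of the core subunits and isoforms named throughout, no call was made for NDUFS1 (0.12), NDUFV1 (0.25), SDHA (0.17), COX4I1 (0.08), COX7A2 (0.17), ATP5G2 (0.12) or COX7A2L (-0.11). Leaving out 1 library lowered the count of higher members to 28 without MM1S vehicle replicate 2 and 29 without MM1S vehicle replicate 1 or MM1R vehicle replicate 2, and that of lower members to 2 without the last.

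**Figure D1:**
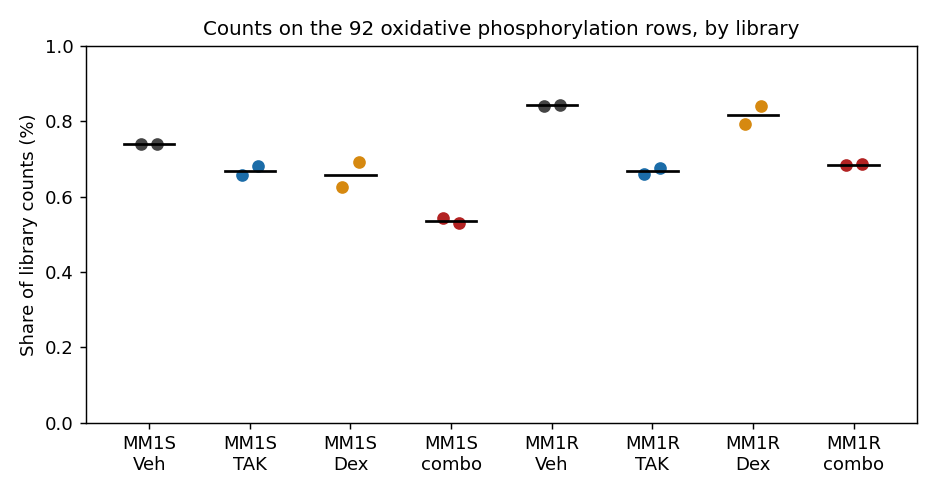
Share of each library's counts (%, y axis, from 0) that fell on the 92 member rows, by group (x axis). Points are the 2 libraries of a group and bars their mean; the share was 0.740% in both MM1S vehicle libraries and 0.543% and 0.529% in MM1S combo, and 0.841% and 0.844% in MM1R vehicle against 0.660% and 0.677% in MM1R TAK-981.

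The summed share of the members moved with treatment in each line. In MM1S it was 0.740% in both vehicle libraries, 0.657% and 0.681% after TAK-981, 0.624% and 0.691% after Dex, and 0.543% and 0.529% after combo. In MM1R it was 0.841% and 0.844% with vehicle, 0.660% and 0.677% after TAK-981, 0.791% and 0.842% after Dex, and 0.683% and 0.686% after combo. The TAK-981 and combo libraries did not overlap the vehicle libraries of their line, while the MM1R Dex libraries reached the vehicle range. Each library pools cells of 1 line, so a change in all cells and a change in a part of them cannot be told apart. The nuclear RNA MALAT1 took 2.85% to 3.47% of counts in the libraries without TAK-981 and 5.22% to 6.17% in those with it, and its part in these shares was not tested. The summed plasma cell markers also differed, at 4705 and 4754 CPM in MM1S vehicle against 3370 and 3524 CPM in MM1S combo, and at 5992 and 6135 CPM in MM1R vehicle against 5410 and 5541 CPM in MM1R TAK-981, and their part was not tested either.

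TAK-981 in MM1R lowered a larger share of members than of all genes in complexes I, III, IV and V, but not in complex II (25%). Of 83 tested, 53 (63.9%) were lower, against 27.6% of all genes, and 1 (1.2%) was higher, against 25.8%. The median log2 fold change was -0.30, against 0.00 over all genes. The vehicle libraries are those used in the comparison of the lines, so these results are not independent of it. Complex V had the lowest median, at -0.43 with 12 of 15 lower, followed by complex IV at -0.33 with 9 of 12 lower and 1 higher, and complex III at -0.29 with 6 of 9 lower. Complex I had a median of -0.24 with 23 of 37 lower, and complex II of -0.12 with 1 of 4 lower. The 7 core subunits of complex I (median -0.24, 5 lower) and its 30 accessory subunits (median -0.25, 18 lower) had nearly the same median. Without 1 library, between 42 and 47 members were lower.

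**Figure D2:**
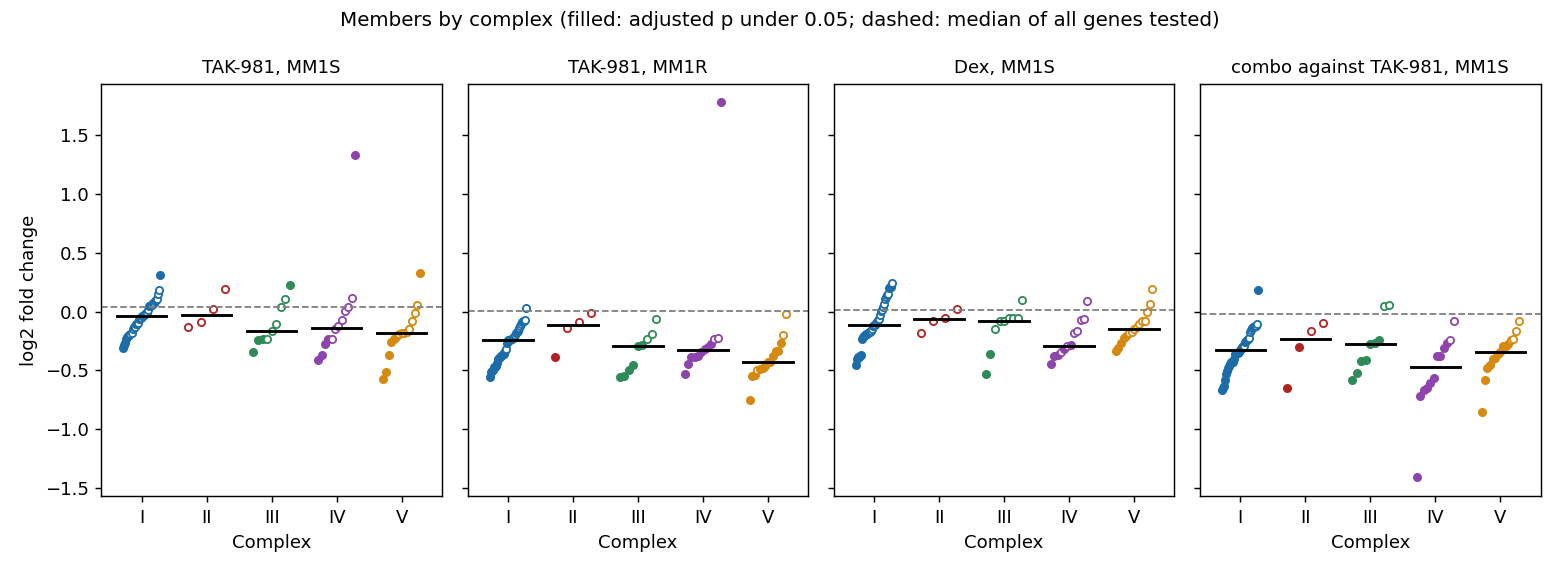
Log2 fold change (y axis) of each tested member by complex (x axis) in 4 comparisons; a point is a member, filled where the edgeR adjusted p was under 0.05, the black bar is the complex median and the dashed line the median of all genes tested. In MM1R TAK-981 the medians ran from -0.12 in complex II to -0.43 in complex V, and COX6B2 stood alone at 1.78.

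In complex V, ATP5G1 was at 76.3 and 80.6 CPM in MM1R vehicle and at 46.7 and 46.7 CPM after TAK-981 (-0.75 ± 0.08 SE, edgeR adjusted p = 6.15e-07). The other c-ring genes were ATP5G3, at -0.49 ± 0.08 (edgeR adjusted p = 6.07e-05), and ATP5G2, at -0.20 ± 0.09 (edgeR adjusted p = 0.0666), which did not pass. The catalytic head subunits ATP5A1 and ATP5B were at -0.38 and -0.46, both lower. ATP5H, a peripheral stalk subunit, had the second smallest adjusted p in the complex (-0.54 ± 0.08, edgeR adjusted p = 1.76e-05).

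In complex IV, COX8A was at 127 and 132 CPM with vehicle and at 89.4 and 89.6 CPM after TAK-981 in MM1R (-0.53 ± 0.08, edgeR adjusted p = 3.94e-05), and COX7B at -0.45 ± 0.08 (edgeR adjusted p = 8.05e-05). COX4I1 (-0.34), COX5B (-0.28), COX6A1 (-0.39), COX6B1 (-0.38) and COX7A2 (-0.39) were also lower, and NDUFA4 (-0.22, edgeR adjusted p = 0.184) made no call. COX7A2L, a factor for supercomplexes counted in no complex, was at -0.30 and lower. COX6B2 moved the other way, from 0.496 and 0.412 to 1.93 and 1.23 CPM (1.78 ± 0.33, edgeR adjusted p = 0.000190), while COX6B1, the ubiquitous form, was at 129 and 132 CPM with vehicle and 99.9 and 101 CPM after TAK-981.

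Complex III showed UQCRC1 at 106 and 105 CPM with vehicle and 74.6 and 69.1 CPM after TAK-981 (-0.55 ± 0.09, edgeR adjusted p = 3.35e-05). CYC1 (-0.54) and the hinge protein UQCRH (-0.50) were lower as well. In complex I, NDUFB10 (-0.51 ± 0.08, edgeR adjusted p = 5.18e-05) and NDUFV2 (-0.36 ± 0.06, edgeR adjusted p = 5.96e-05), a core subunit, had the smallest adjusted p. NDUFS1, another core subunit, was lower by a small amount (-0.16), and NDUFV1 (-0.24, edgeR adjusted p = 0.0622) made no call. In complex II, the iron-sulfur subunit SDHB was lower (-0.38 ± 0.10, edgeR adjusted p = 0.00239) and the flavoprotein SDHA made no call (-0.01 ± 0.10, edgeR adjusted p = 0.919). The sign of SDHA reversed under upper quartile scaling, at 0.068, where the median of all genes was 0.086.

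TAK-981 in MM1S gave fewer calls. Here 19 members (22.9%) were lower, against 23.7% of all genes, so the share of lower members was near that of all genes. Only 5 (6.02%) were higher, against 25.2%. The median was -0.09, against 0.04 over all genes tested. Complex medians were -0.04 in complex I (5 lower and 1 higher), -0.03 in complex II (0 and 0), -0.17 in complex III (3 and 1), -0.14 in complex IV (4 and 1) and -0.18 in complex V (6 and 1). The signs of complexes I and II reversed under upper quartile scaling, at 0.0089 and 0.017. Both stayed below the median of all genes, which was 0.086 in that setting. The count of lower members was 11 without MM1S vehicle replicate 1 and 10 without MM1S vehicle replicate 2, and that of higher members was 3 without vehicle replicate 2 and 9 without TAK-981 replicate 1.

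ATP5G1 had the smallest adjusted p here too, at 50.4 and 48.0 CPM with vehicle and 32.5 and 33.9 CPM after TAK-981 (-0.57 ± 0.09, edgeR adjusted p = 2.89e-05). ATP5J (-0.51), whose row lies opposite GABPA, ATP5G3 (-0.23) and ATP5B (-0.25) were lower in complex V. The membrane subunit ATP5I, whose row lies opposite MYL5, was higher (0.32). COX8A went from 103 and 108 to 73.9 and 85.1 CPM (-0.41 ± 0.09, edgeR adjusted p = 0.000668), and COX6A1 was lower (-0.37). COX6B2 rose from 1.83 and 1.28 to 3.99 and 3.91 CPM (1.33 ± 0.23, edgeR adjusted p = 7.89e-05). In complex III, UQCRH (-0.34) and CYC1 (-0.23) were lower and UQCRB higher (0.22).

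In complex I of MM1S, NDUFA12 (-0.31) and NDUFAB1 (-0.28), the acyl carrier protein, were lower. NDUFB5 was higher, at 113 and 109 CPM with vehicle and 138 and 137 CPM after TAK-981 (0.31 ± 0.06, edgeR adjusted p = 0.000395). No call was made for NDUFS1 (-0.10), NDUFV1 (0.07), SDHA (0.19), SDHB (-0.13), UQCRC1 (-0.17), COX4I1 (0.11), COX6B1 (-0.07), COX7A2 (-0.14), NDUFA4 (-0.23), ATP5A1 (-0.19) or ATP5G2 (0.05), nor for COX5B (0.00) and COX7A2L (0.04), whose signs reversed under other scalings. The 2 SDHA libraries after TAK-981 lay far apart, at 266 and 346 CPM.

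**Figure D3:**
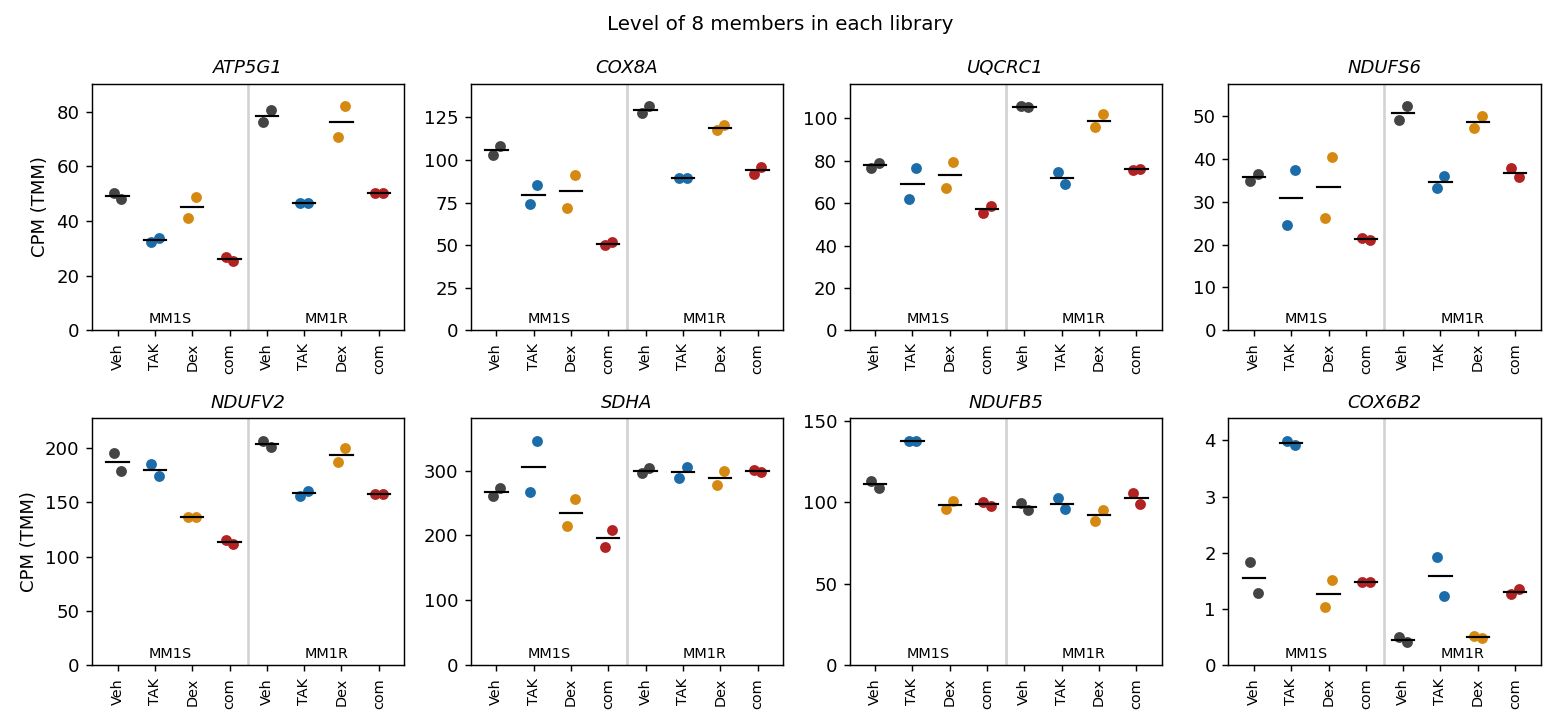
Level (CPM after TMM scaling, y axis from 0) of 8 members in each library by treatment (x axis), MM1S left and MM1R right; points are libraries and bars the mean of 2. ATP5G1 lay at 76.3 and 80.6 CPM in MM1R vehicle and at 46.7 in both TAK-981 libraries, and COX6B2 was highest in MM1S TAK-981; the 8 were chosen after their values were seen.

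Of the members, 18 of 83 (21.7%) were lower after TAK-981 in both lines, against 18.9% of all genes tested. Another 35 (42.2%) were lower in MM1R with no call in MM1S, against 8.6% of all genes, and 1 (UQCRHL) was lower in MM1S with no call in MM1R, against 4.64%. No call in either line was made for 24 (28.9%), against 34.3%. The difference between the lines was tested directly. Only NDUFA1, a small accessory subunit of complex I, passed, with a TAK-981 change that differed by -0.42 ± 0.11 (MM1R minus MM1S, edgeR adjusted p = 0.0414), against 0.978% of all genes in that direction. In MM1R it was at 106 and 101 CPM with vehicle and at 86.6 and 85.6 CPM after TAK-981, with no overlap. In MM1S it was at 89.1 and 98.6 CPM with vehicle and at 98.6 and 110.0 CPM after TAK-981, where the groups met. The NDUFA1 row overlaps RNF113A on the opposite strand, so its reads may be shared. No member had a change more positive in MM1R, against 3.19% of genes, while 28 members had an unadjusted p under 0.05 in either direction and DESeq2 gave 0 and 2. The median difference was -0.23 over members and -0.0034 over all genes, and the core subunits and isoforms ranged from -0.45 for COX4I1 to 0.44 for COX6B2. This count rested on single libraries, with 26 lower and 1 higher without MM1S TAK-981 replicate 1, 3 without TAK-981 replicate 2 of MM1S, and 0 without any of the other 6 libraries. It was 15 with no filter on low counts, 2 with only the vehicle and TAK-981 groups in the fit, and 0 under library size or upper quartile scaling.

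Dex in MM1S made 22 members (26.5%) lower, against 21.5% of all genes, and 1 (1.2%) higher, against 20.8%. The share of lower members thus stood close to that of all genes. The median was -0.12, against 0.01 over all genes, and complex IV was lowest at -0.29 (5 lower), with complex V at -0.15 (5), complex I at -0.12 (10, and 1 higher), complex III at -0.08 (2) and complex II at -0.07 (0). UQCRH was at 105 and 103 CPM with vehicle and 72.6 and 71.3 CPM after Dex (-0.53 ± 0.07, edgeR adjusted p = 4.23e-06). NDUFV2 was at 195 and 179 and then 137 and 137 CPM (-0.45 ± 0.06, edgeR adjusted p = 7.83e-06), with no overlap between the groups. NDUFV3, the small flavoprotein subunit, was the member that rose (0.21).

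Also lower after Dex were NDUFA6 (-0.40), UQCRQ (-0.36), COX6A1 (-0.44), COX7B (-0.38), COX7A2 (-0.32), COX8A (-0.37), ATP5G3 (-0.31), ATP5J (-0.34), ATP5B (-0.21) and NDUFS1 (-0.22). The other core subunits and isoforms made no call, with values from -0.34 for NDUFA4 to 0.20 for NDUFV1. Both MM1S Dex libraries mattered: 14 members were lower and 10 higher without Dex replicate 1, the higher count was 0 without Dex replicate 2 or vehicle replicate 1, and 12 were lower without vehicle replicate 2. The median was -0.05 without Dex replicate 1 and -0.22 without Dex replicate 2.

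In MM1R, Dex gave 0 calls in either direction among members and 0% of all genes in each direction by edgeR. One member and 395 genes had an unadjusted p under 0.05, and DESeq2 called 0 members. The median was -0.05 (-0.01 over all genes), and it was 0.00092 without Dex replicate 1 and -0.11 without Dex replicate 2. The core subunits and isoforms ranged from -0.12 for COX7A2 to 0.14 for COX6B2. Tested between lines, the Dex change was more positive in MM1R for 7 members (8.43%), against 15% of genes, and more negative for 2 (2.41%), against 13.1%. UQCRH (0.48 ± 0.09, edgeR adjusted p = 0.000786), NDUFV2 (0.38) and NDUFB6 (0.40) led the first group, and NDUFV3 (-0.29) and NDUFA13 (-0.42) made the second. The NDUFA13 row overlaps YJEFN3 on the same strand and the NDUFB6 row SMIM27 on the opposite strand, so their reads may be shared. UQCRH was at 110.3 and 111 CPM with vehicle and 103 and 111 CPM with Dex in MM1R. The count of more positive members was 15 without MM1S Dex replicate 2, 4 without MM1S vehicle replicate 2 and 3 without MM1S Dex replicate 1 or MM1R Dex replicate 2, and that of more negative members was 6 without MM1S Dex replicate 1, 1 without MM1S vehicle replicate 2 and 0 without MM1S vehicle replicate 1, MM1S Dex replicate 2, either MM1R vehicle library or MM1R Dex replicate 1.

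Adding Dex to TAK-981 in MM1S lowered 56 members (67.5%), against 20.6% of all genes, and raised 1 (1.2%), against 14.5%. The median was -0.32, against -0.02 over all genes. Complex IV was lowest at -0.47 (10 of 12 lower), then complex V at -0.34 (11 of 15), complex I at -0.32 (24 of 37, and 1 higher), complex III at -0.27 (7 of 9) and complex II at -0.23 (2 of 4). Without combo replicate 2 the count of lower members was 37. NDUFV2 was at 185 and 174 CPM with TAK-981 and 115 and 111 CPM with combo (-0.66 ± 0.06, edgeR adjusted p = 9.02e-08). COX7A2 (-0.72 ± 0.09, edgeR adjusted p = 2.71e-06) and ATP5L, a membrane subunit of the ATP synthase (-0.58 ± 0.07, edgeR adjusted p = 4.38e-06), came next. The ATP5L row overlaps LOC100131626 on the opposite strand.

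The flavoprotein SDHA, which made no call with either drug alone, was at 266 and 346 CPM with TAK-981 and 183 and 208 CPM with combo (-0.65 ± 0.10, edgeR adjusted p = 0.000118). COX6B2 was at 3.99 and 3.91 CPM with TAK-981 and 1.49 and 1.48 CPM with combo (-1.41 ± 0.24, edgeR adjusted p = 0.000128). These TAK-981 libraries also served TAK-981 against vehicle in MM1S, so opposite changes in both comparisons are not independent. Other core subunits and isoforms that were lower were SDHB (-0.30), NDUFS1 (-0.30), UQCRC1 (-0.27), CYC1 (-0.26), COX4I1 (-0.67), COX5B (-0.27), COX6A1 (-0.61), COX6B1 (-0.38), COX7A2L (-0.46), COX8A (-0.65), ATP5A1 (-0.39), ATP5B (-0.48), ATP5G1 (-0.34), ATP5G2 (-0.36) and ATP5G3 (-0.45). NDUFV1 (-0.12) and NDUFA4 (-0.24) made no call, and NDUFV3 was higher (0.18), a call lost without TAK-981 replicate 2 or combo replicate 2. In MM1R the same comparison gave 0 calls among members and 0% of all genes in each direction, with 0 members and 214 genes at an unadjusted p under 0.05, 0 members by DESeq2 and a median of 0.03 (0.00 over all genes). The core subunits and isoforms ranged there from -0.26 for COX6B2 to 0.13 for CYC1.

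Against vehicle, combo in MM1S lowered 64 members (77.1%), against 29.5% of all genes, and raised 3 (3.61%), against 30.8%. The median was -0.43, against 0.04 over all genes. This comparison was added after the data were seen and shares its vehicle libraries with those of the single drugs. COX8A was at 103 and 108 CPM with vehicle and 49.9 and 51.7 CPM with combo (-1.05 ± 0.09, edgeR adjusted p = 7.89e-09). UQCRH (-0.86 ± 0.07, edgeR adjusted p = 3.80e-09) had the smallest adjusted p. The 3 that were higher, NDUFV3, ATP5S and NDUFA6-AS1, became 1 without MM1S vehicle replicate 2, combo replicate 1 or combo replicate 2.

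Whether the combo change departed from the sum of the single-drug log2 changes was tested as an interaction, also added after the data were seen. It was negative for 14 members (16.9%), against 9.48% of genes, and positive for 0, against 5.47%, with 35 members at an unadjusted p under 0.05 and 14 and 0 by DESeq2. The median was -0.23 over members and -0.03 over all genes, and -0.13 without Dex replicate 2 and -0.33 without Dex replicate 1. ATP5I (-0.77 ± 0.19, edgeR adjusted p = 0.0105), NDUFB2 (-0.49) and ATP5L (-0.41) had the smallest adjusted p. Their rows lie opposite MYL5, NDUFB2-AS1 and LOC100131626, so their reads may be shared. SDHA (-0.46), COX4I1 (-0.51), COX5B (-0.36), COX7A2 (-0.41), COX7A2L (-0.38), ATP5G2 (-0.43) and COX6B2 (-1.12) were also among the 14. The count depended on single MM1S libraries, at 39 without Dex replicate 1, 34 (with 4 positive) without TAK-981 replicate 1, 8 without TAK-981 replicate 2 or combo replicate 1, 6 and 2 without vehicle replicates 2 and 1, 3 without combo replicate 2 and 0 without Dex replicate 2. With only the MM1S groups in the fit it was 0, with no filter on low counts 28 and under library size scaling 9.

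**Figure D4:**
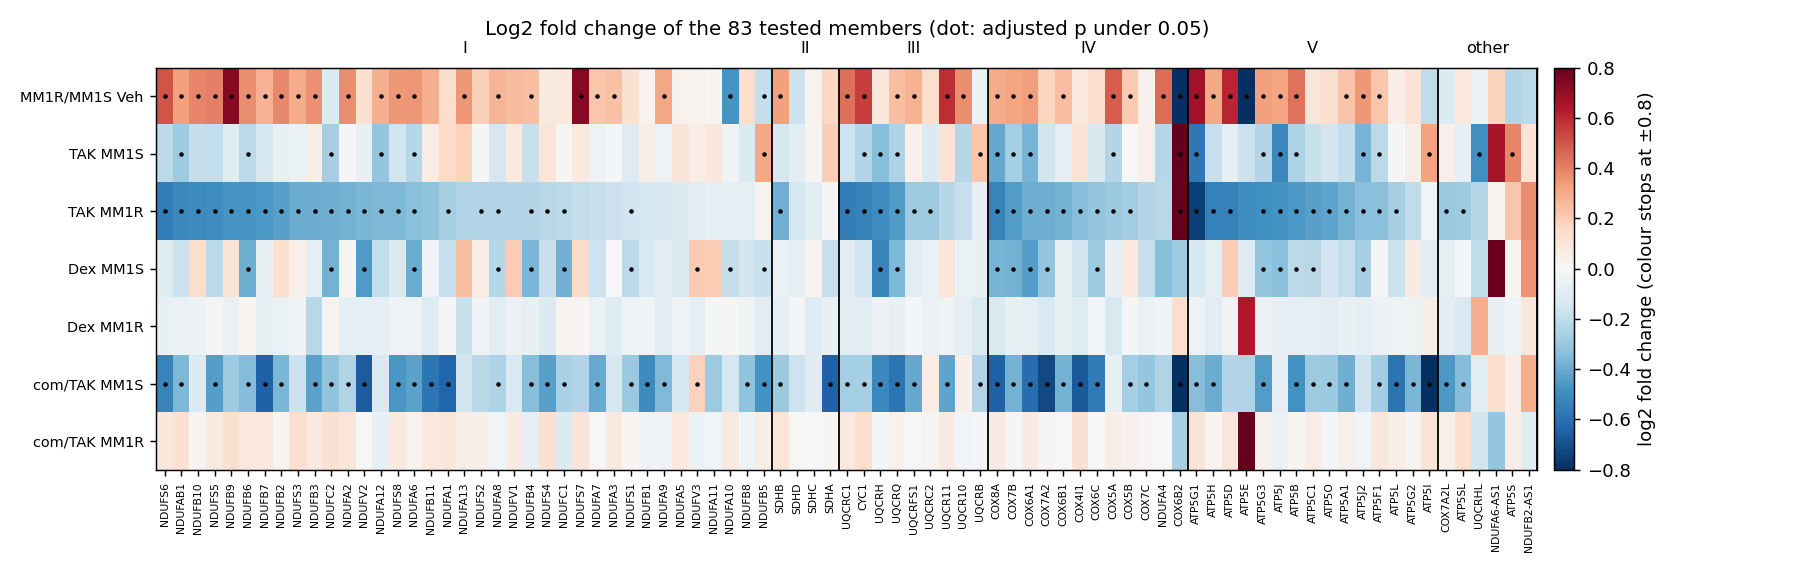
Log2 fold change (colour, blue lower and red higher, stopping at 0.8 in either direction) of the 83 tested members (columns, grouped by complex) in 7 comparisons (rows); a dot marks an edgeR adjusted p under 0.05. The MM1R TAK-981 row holds 53 dots on lower members, and the MM1R Dex and MM1R combo against TAK-981 rows hold 0.

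Gene length went with the change over all genes in some comparisons only. In MM1R TAK-981, all genes of up to 1 kb had a median of -0.09, those of 1 to 2 kb -0.09 and longer genes 0.03, whereas the members in those ranges had medians of -0.38, -0.32 and -0.21. For combo against TAK-981 in MM1S the medians were -0.12, -0.08 and -0.0039 for all genes and -0.37, -0.35 and -0.23 for members. Over all genes there was no such order for TAK-981 in MM1S (0.024, 0.040 and 0.037), Dex in MM1S (0.0081, 0.036 and 0.0091) or the vehicle-treated lines (-0.00064, 0.097 and -0.0092). Members there had medians of -0.14, -0.094 and 0.037, of -0.16, -0.12 and -0.033, and of 0.28, 0.28 and 0.13. The part of length was not tested. Reads on 15 members could be shared with an overlapping row on the same strand, and 17 overlap a row on the opposite strand only, which matters because the strand setting of the counting is not given in the sources used here.

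Genes that work with the complexes were counted in 4 lists, of 51 assembly factors, 25 genes of pyruvate entry and the TCA cycle, 16 regulators and 9 carriers and cytochrome c genes tested. The last list, called carriers below for short, held CYCS, SLC25A3, SLC25A4, SLC25A5, VDAC1, VDAC2, VDAC3, ATPIF1 and UCP2. Not all of these are carriers in the strict sense. Each count is to be read against all genes. After TAK-981 in MM1R, where 27.6% of all genes were lower and 25.8% higher, 8 of 9 tested carriers and cytochrome c genes were lower and 1 higher, with a median of -0.54. The adenine nucleotide carriers SLC25A5 (-0.71 ± 0.07) and SLC25A4 (-0.67 ± 0.07), which exchange ADP and ATP across the inner membrane, were lower, and UCP2 was higher (0.16 ± 0.06). Of 25 genes of pyruvate entry and the TCA cycle, 16 were lower and 3 higher, among them fumarase FH (-0.58 ± 0.06) and the pyruvate carrier MPC2 (-0.48 ± 0.06), with PDP1 (0.41 ± 0.11) and OGDH (0.21 ± 0.07) higher. Of 51 assembly factors, 16 (31.4%) were lower and 1 (COA1, 0.30 ± 0.08) higher, with LRPPRC (-0.51 ± 0.05) and FOXRED1 (-0.60 ± 0.08) lower. Among 16 regulators, 7 were lower and 2 higher, with TFAM, the mitochondrial transcription factor (-0.44 ± 0.07), and PPARGC1B (-0.52 ± 0.06) lower and PPARGC1A (0.69 ± 0.11) and POLG2 (0.31 ± 0.10) higher.

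In MM1S, where 23.7% of all genes were lower and 25.2% higher after TAK-981, 6 of 9 carriers were lower and 0 higher, with CYCS, cytochrome c itself (-0.59 ± 0.07), and VDAC1 (-0.49 ± 0.06) lower. The TCA list of 25 had 13 lower and 4 higher (FH -0.57 ± 0.06, PDK1 -0.66 ± 0.07, OGDH 0.48 ± 0.07, PDK2 0.46 ± 0.09). The 51 assembly factors had 8 (15.7%) lower and 6 (11.8%) higher (FOXRED1 -0.62 ± 0.08, LRPPRC -0.38 ± 0.05, COA5 0.27 ± 0.09, ATPAF1 0.23 ± 0.08). The 16 regulators had 4 lower and 3 higher (PPARGC1B -0.49 ± 0.06, TFAM -0.39 ± 0.07, ESRRA 0.63 ± 0.08, PPARGC1A 0.55 ± 0.10), and ESRRA was the list gene whose TAK-981 change differed between the lines (-0.51 ± 0.12, in MM1R relative to MM1S).

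Dex in MM1S, where 21.5% of all genes were lower and 20.8% higher, gave 6 lower carriers (CYCS -0.69 ± 0.07, SLC25A4 -0.49 ± 0.07), 10 lower and 1 higher TCA genes (PDK1 -0.89 ± 0.07, PDK3 -0.59 ± 0.07, OGDH 0.46 ± 0.07), 5 (9.8%) lower and 11 (21.6%) higher assembly factors (COX17 -0.63 ± 0.14, COA6 -0.43 ± 0.10, BCS1L 0.43 ± 0.08, TTC19 0.34 ± 0.07) and 2 lower and 8 higher regulators (PPARGC1A -0.43 ± 0.11, GABPB1 -0.26 ± 0.08, TWNK 0.42 ± 0.09, POLRMT 0.44 ± 0.10). COX17, the copper chaperone of complex IV, was lower again with combo against TAK-981 (-0.99 ± 0.14), where 20.6% of all genes were lower and 14.5% higher. There 8 assembly factors were lower and 1 higher, 13 TCA genes lower and 1 higher, 7 carriers lower and 0 higher, and 1 regulator each way. Of these, PDK1 (-0.58 ± 0.07), MPC2 (-0.47 ± 0.07), UCP2 (-0.56 ± 0.06), CYCS (-0.47 ± 0.08), COA6 (-0.54 ± 0.10) and GABPB1 (-0.44 ± 0.09) were lower, and SUCLG2 (0.22 ± 0.07), SDHAF4 (0.54 ± 0.19) and POLG2 (0.27 ± 0.10) were higher. In vehicle-treated cells, where 25.6% of all genes were higher in MM1R and 22.6% lower, 17 assembly factors, 17 TCA genes, 5 carriers and 4 regulators were higher in MM1R, and 4, 2, 0 and 1 were lower, with PPARGC1A at -0.93 ± 0.11. The complex III factors UQCC2 (0.71 ± 0.08) and BCS1L (0.55 ± 0.08), OGDH (0.64 ± 0.07), citrate synthase CS (0.41 ± 0.06), POLRMT (0.76 ± 0.10), PPARGC1B (0.34 ± 0.06), UCP2 (0.44 ± 0.06) and VDAC3 (0.47 ± 0.07) were higher in MM1R, and TIMMDC1 (-0.53 ± 0.09), COX19 (-0.42 ± 0.11), PDK3 (-0.33 ± 0.07) and PDP1 (-0.48 ± 0.11) were lower.

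The motif content of the promoters was set beside the TAK-981 calls in MM1R as a description. The ETS motif was in 15 of 43 windows of lower members and in 4 of 24 of members with no call. The NRF1 motif was in 7 of 43 against 8 of 24, and the E-box in 2 of 43 against 6 of 24. SDHA, with 4 NRF1 motifs, made no call, and UQCRC1, with 1, was lower.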

How the data were processed

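Gene-level read counts were deposited by the authors as 1 table of 23354 genes and 16 libraries. Per the submitters' processing notes, bcl2fastq 2.18.0.12, STAR 2.6.0, HTSeq 0.6.0 and edgeR 3.28.1 were used with hg19. These counts were analysed as deposited; the strand setting is not given in the sources used here.

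Genes were filtered with filterByExpr, scaled by TMM and fitted with edgeR 4.0.16 (R 4.3.3, robust quasi-likelihood, 8 residual degrees of freedom) in 1 model of 8 groups. P-values were two-sided and adjusted by Benjamini-Hochberg over 14215 genes, with a threshold of 0.05. Comparisons that use the same group share its libraries, so their results are not independent. The code was tested on simulated data. Depth ranged from 15707587 to 24796539 counts, so low rows are the least precise. Levels are CPM.

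The members and lists were chosen with earlier results of these data known. Named genes were 10 core subunits and 7 isoform groups, then, per complex, the 2 higher and 2 lower members of smallest adjusted p (3 and 3 overall for interactions and combo against TAK-981). From each list the 2 higher and 2 lower were taken. The fixed subunits are not listed 1 by 1 where calls were 0 or the comparison was added, and list genes are left out for the added comparisons. Alternatives were RLE, library size and upper quartile scaling, no filter, DESeq2 1.42.0, a replicate block, only the groups compared, a minimum change of 0.5 on the log2 scale in addition to the test, and 1 library left out at a time. Comparisons of combo with vehicle, TAK-981 by Dex and Dex by line, and the length ranges, were added after seeing the data.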

Additional observations from a re-analysis of the deposited data

Results flagged for a closer look

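The TAK-981 change of NDUFA1 differed between the lines by -0.42 ± 0.11 (MM1R minus MM1S, log2 scale, SE, edgeR adjusted p = 0.0414). Among members 1.2% passed in that direction, against 0.978% of all genes. Under library size or upper quartile scaling the count of such members was 0. The NDUFA1 row overlaps RNF113A on the opposite strand. The Dex change differed between the lines, by edgeR's quasi-likelihood test of the difference, for 9 members. It was more positive in MM1R for UQCRH (0.48), NDUFB6 (0.40), NDUFC1 (0.40), NDUFV2 (0.38), COX6A1 (0.37), NDUFA6 (0.36) and COX7B (0.32). It was more negative in MM1R for NDUFA13 (-0.42), whose row overlaps YJEFN3 on the same strand, and NDUFV3 (-0.29). These were 8.43% and 2.41% of members, smaller shares than the 15% and 13.1% of all genes. Each group had 2 libraries, so single libraries could not be tested as outliers.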

How the results depend on the processing

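A minimum change of 0.5 on the log2 scale, in addition to the test, left, for TAK-981, 1 higher and 2 lower in MM1S and 9 lower in MM1R, for Dex in MM1S 0 and 1, for combo against TAK-981 in MM1S 0 and 17, for the vehicle-treated lines 7 and 2, for combo against vehicle 1 and 29, for the interaction of the drugs 5 lower, and 0 for both differences between lines. With only the groups compared, TAK-981 in MM1S had 2 higher, Dex in MM1S 0, combo against TAK-981 0, the vehicle-treated lines 7 lower, TAK-981 between lines 2 lower, the drug interaction 0 lower, and Dex between lines 11 higher and 1 lower. With no filter, Dex in MM1S had 3 higher, combo against TAK-981 0 higher, TAK-981 between lines 15 lower, the interaction 28 lower and Dex between lines 12 higher. DESeq2 gave 3 higher for TAK-981 in MM1S, 2 lower for TAK-981 between lines, 1 higher for combo against vehicle and 1 lower for Dex between lines. Scaling by library size only gave 0 lower for TAK-981 between lines, 9 lower for the interaction, and 13 higher and 1 lower for Dex between lines. Its medians were -0.16 for the interaction (0.042 over all genes) and 0.17 for the vehicle-treated lines (-0.057 over all genes). Upper quartile scaling gave 0 lower for TAK-981 between lines and 1 lower for Dex between lines. Its medians were -0.22 for TAK-981 in MM1R, 0.17 for the vehicle-treated lines and -0.33 for combo against vehicle. The medians of all genes moved in the same direction, to 0.086, -0.057 and 0.13. The upper quartile medians for TAK-981 in MM1R were -0.16, -0.035, -0.21 and -0.25 in complexes I to IV. In MM1S those of complexes I and II reversed to 0.0089 and 0.017, still below the 0.086 of all genes in that setting. The causes were not tested.

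The replicate block gave 4 higher for Dex in MM1S, 26 lower for TAK-981 between lines, 32 lower for the interaction and 14 higher for Dex between lines. Replicate numbers were not used as pairs in the main fit. Deviations correlated over 0.1 in 4 of 6 group pairs in MM1S (0.037 to 0.38) and 1 of 6 in MM1R (0.0071 to 0.12).

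Leaving out 1 library at a time, with the lone sample assumed to vary like the other groups, gave these ranges. TAK-981 in MM1S had 3 to 9 higher and 10 to 19 lower (median -0.12 to -0.033), and TAK-981 in MM1R 1 higher and 42 to 47 lower (-0.33 to -0.29). Dex in MM1S had 0 to 10 higher and 12 to 30 lower (-0.22 to -0.050), and Dex in MM1R 0 and 0 (-0.11 to 0.00092). Combo against TAK-981 had 0 to 2 higher and 37 to 54 lower in MM1S (-0.37 to -0.30) and 0 and 0 in MM1R (0.026 to 0.057). TAK-981 between lines had 0 to 1 higher and 0 to 26 lower (-0.28 to -0.19), and the vehicle-treated lines 28 to 32 higher and 2 to 3 lower (0.22 to 0.25). Combo against vehicle had 1 to 2 higher and 52 to 60 lower (-0.48 to -0.39), the interaction 0 to 4 higher and 0 to 39 lower (-0.33 to -0.13), and Dex between lines 3 to 15 higher and 0 to 6 lower (-0.0025 to 0.16).

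Of 2354 values for named members under these alternatives, 42 changed sign, none of them called. COX5B after TAK-981 in MM1S went to -0.014 (RLE), -0.045 (library size), -0.0028 (no filter), -0.017 (DESeq2) and -0.022 (only the groups compared), and COX7A2L to -0.0090 (library size). SDHA after TAK-981 in MM1R went to 0.068, NDUFV1 and COX6B2 in combo against vehicle to 0.046 and 0.017, and COX6A1 between lines to 0.016, all under upper quartile scaling, and COX6A1 to 0.029 under library size. The other changes of sign came with 1 library left out. In TAK-981 in MM1S, values ran for COX5B -0.015 to 0.020, COX7A2L -0.00056 to 0.078, SDHB -0.26 to 0.010, NDUFV1 -0.12 to 0.24, SDHA -0.0078 to 0.37, COX4I1 -0.068 to 0.27, NDUFA4 -0.59 to 0.054 and ATP5G2 -0.090 to 0.18. In TAK-981 in MM1R, values ran for SDHA -0.055 to 0.022. In Dex in MM1S, values ran for SDHB -0.21 to 0.091, UQCRC1 -0.21 to 0.031, COX6B1 -0.20 to 0.060, COX7A2L -0.17 to 0.0034 and ATP5G2 -0.077 to 0.19. In combo against TAK-981 in MM1S, values ran for NDUFA4 -0.53 to 0.11 and NDUFV1 -0.29 to 0.070. In TAK-981 by line, values ran for COX6A1 -0.069 to 0.034 and NDUFA4 -0.28 to 0.36. In combo against vehicle in MM1S, values ran for NDUFV1 -0.10 to 0.00071 and COX6B2 -0.30 to 0.21. In TAK-981 by Dex in MM1S, values ran for NDUFA4 -0.19 to 0.45, CYC1 -0.22 to 0.0059 and ATP5G3 -0.31 to 0.050.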
